A study of Homo sapiens and Mus musculus with 12 samples.

Results

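The EGF receptor (*EGFR*) family signals through receptor tyrosine kinases that pair with one another once an EGF-like ligand binds. Its ligands are made as membrane-anchored precursors and are released by cell-surface proteases, so that a carcinoma cell can feed its own receptors. Receptor activity in turn raises transcription of several ligand genes and of feedback inhibitors, which makes the ligand and inhibitor transcripts common readouts of signaling through the pathway.

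The 10 genes of this family examined here were chosen by name, with earlier results of these data known, and taken under the same symbol in human and mouse. They comprise 5 ligand genes (*HBEGF*, *AREG*, *EREG*, *TGFA* and *BTC*), 3 receptor genes (*EGFR*, *ERBB2* and *ERBB3*) and 2 genes for inhibitors of the receptors (*ERRFI1* and *LRIG1*). They are 10 of the 63677 gene identifiers counted in the human libraries and 10 of the 47729 counted in the mouse libraries. RNA sequencing covered 12 libraries in 4 groups of 3. MDA-MB-231, a human triple-negative breast cancer line, and 4T1, a mouse mammary carcinoma line, both labelled wild-type, were each kept for 24 h with 1 μmol/L ponatinib, which inhibits several tyrosine kinases, or with DMSO, the vehicle. The comparison of ponatinib with DMSO in each line asked which transcripts the drug changed. The labels do not state whether the 3 libraries of a group were separate cultures, so p-values measure the spread between these libraries, which may be technical.

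Libraries held 15012884 to 17301760 counts in MDA-MB-231 and 17800675 to 18951493 counts in 4T1. Keratin genes *KRT8*, *KRT18* and *KRT19* were expressed in both lines, but *CDH1*, the epithelial cadherin, had a mean of 0 CPM (counts scaled to the library total) with DMSO in MDA-MB-231. In 4T1 *Cdh1* stood at 830 CPM with DMSO. *EPCAM* was low in both lines with DMSO, at 6.44 CPM in MDA-MB-231 and 2.86 CPM in 4T1. *KRT7* was at 453 CPM in MDA-MB-231 and 11.5 CPM in 4T1 with DMSO. Summed over 5 leukocyte markers, the level was 0 to 0.189 CPM in the MDA-MB-231 libraries and 1.23 to 2.44 CPM in the 4T1 libraries, and *PTPRC*, which defines leukocytes, was at 0 in all MDA-MB-231 libraries. Of the 3 endothelial markers *PECAM1* was at 0 in MDA-MB-231 and *KDR* at 4.45 CPM with DMSO and 4.20 CPM with ponatinib (summed level of the list 2.84 to 5.42 CPM), and of the fibroblast markers *Dcn* was at 0 in 4T1. The summed level of 3 fibroblast markers moved with ponatinib, from 25.7 to 31.3 CPM with DMSO to 72.7 to 76.9 CPM in MDA-MB-231 and from 5.95 to 6.89 CPM to 9.51 to 10.2 CPM in 4T1, and *COL1A1* was the member that rose. *Pdgfra* of the same list went the other way in 4T1, from 2.86 to 1.56 CPM. In MDA-MB-231 the sum of 6 epithelial markers also moved, from 2034 to 2480 CPM with DMSO to 2985 to 3787 CPM with ponatinib, and that of 4 mesenchymal markers from 1342 to 1528 CPM to 947 to 1124 CPM, through *VIM*, while *FN1* of the same list went from 123 to 207 CPM. In 4T1 the mesenchymal sum moved from 6429 to 7370 CPM to 4401 to 4823 CPM, mainly through *Fn1*, and the sum of 3 endothelial markers from 2.89 to 5.03 CPM to 0.868 to 1.45 CPM, while the epithelial sums overlapped. Within that epithelial list *Krt18* went from 3246 to 2238 CPM and *Krt7* from 11.5 to 6.28 CPM, while *Krt8* went from 2389 to 2818 CPM. The part of these shifts in the results below was not tested. In bulk RNA, fewer cells expressing a gene and less RNA per cell cannot be told apart.

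Ponatinib lowered all 5 ligand genes in 4T1 and the main ligand gene of MDA-MB-231, while of the receptor genes only *EGFR* in MDA-MB-231 was lower. With edgeR's quasi-likelihood test and Benjamini-Hochberg adjustment over all genes, called at an adjusted p under 0.05, 4 of the 9 genes tested were lower and 3 were higher in MDA-MB-231. Of the higher genes, *BTC* passed the filter on low counts only through the group where it is high. Over all 14610 genes tested in that line, 26.8% were lower, 27.2% were higher and 54.0% were called in either direction. In 4T1, 7 of the 10 genes were lower and 1 was higher. Over all 13286 genes tested there, 29.4% were lower, 29.5% were higher and 59.0% were called in either direction. Ponatinib against DMSO, the log2 fold change had a median of -0.57 over the 9 genes tested in MDA-MB-231, and of -1.20 over the 10 genes of 4T1, beside medians of 0.02 and -0.0001 over all genes tested. In each line 8 of the 10 genes had ponatinib libraries that did not overlap the DMSO libraries, against 60.4% and 63.4% of all genes tested. The MDA-MB-231 count includes *AREG*, which lay below but was not tested, so the share of genes tested does not cover it. It also includes *BTC*, which lay above and passed the filter only through the group where it is high. In MDA-MB-231, 5 of the 8 lay below and 3 above, against 29.8% and 30.6% of all genes tested, and in 4T1, 7 lay below and 1 above, against 30.8% and 32.6%.

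**Figure D1:**
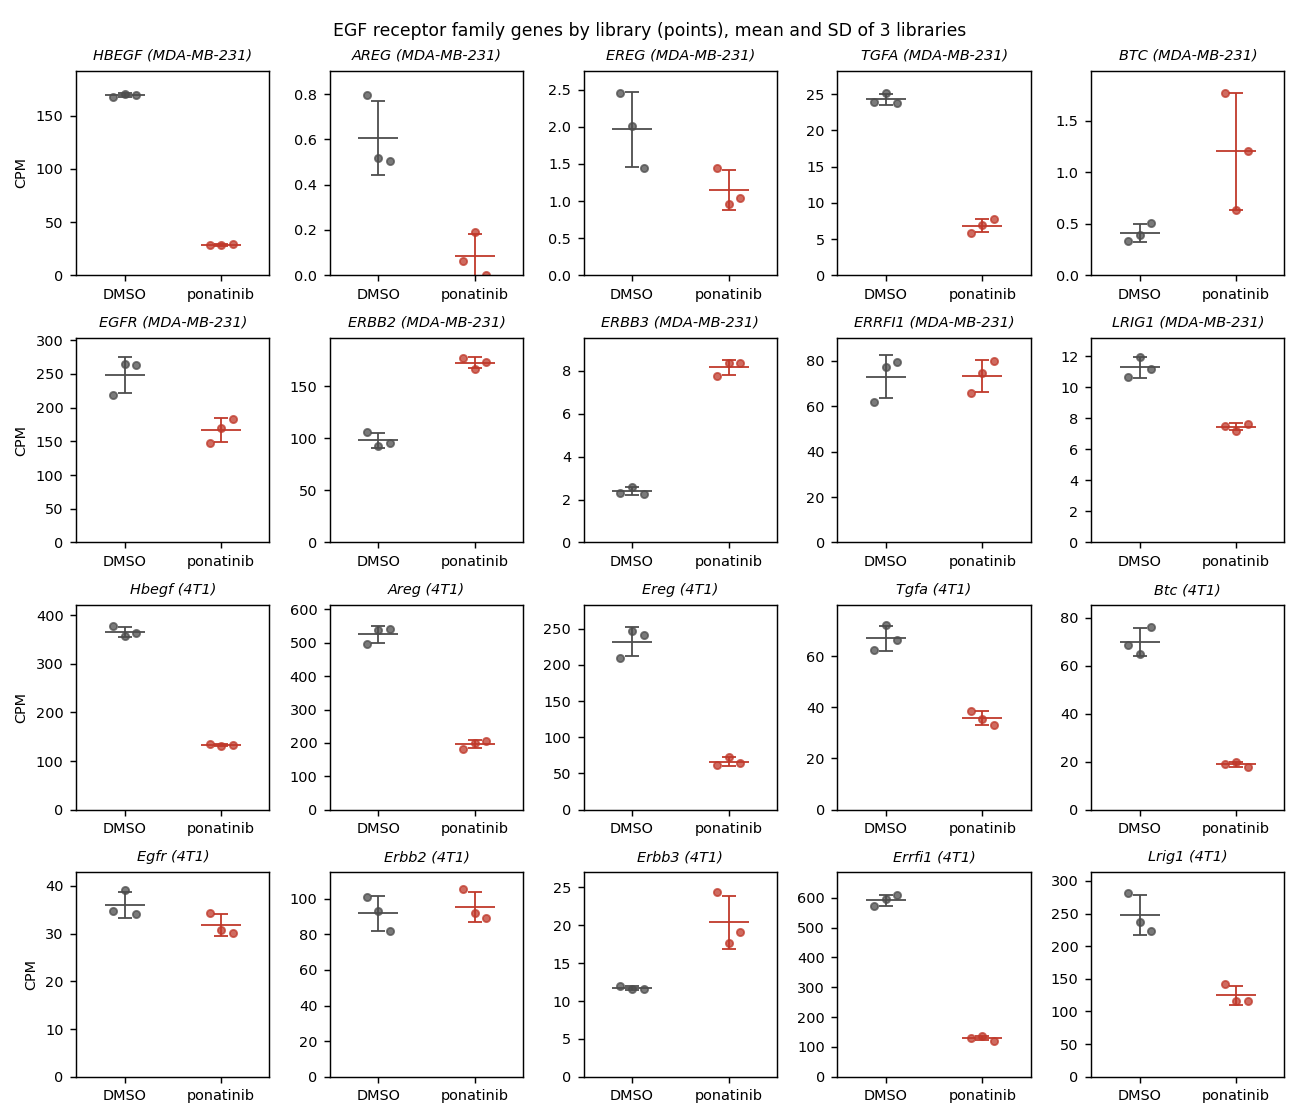
Level of each gene (CPM, linear axis from 0) in the 3 DMSO and 3 ponatinib libraries of each line, with points for libraries, wide dashes for means and bars for the SD. In 4T1 all 5 ligand genes and both inhibitor genes lie lower with ponatinib, whereas in MDA-MB-231 *ERRFI1* overlaps between groups and *BTC*, *ERBB2* and *ERBB3* lie higher.

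*HBEGF* encodes heparin-binding EGF-like growth factor, a ligand of EGFR that also serves as the diphtheria toxin receptor. In MDA-MB-231 its level was 167, 171 and 169 CPM in the DMSO libraries and 28.3, 28.3 and 29.6 CPM in the ponatinib libraries. The groups were far apart and each was tight, with means of 169 ± 1.82 and 28.7 ± 0.729 CPM (SD, n = 3). The gene was 5.89-fold lower with ponatinib, a log2 fold change of -2.56 ± 0.08 (SE; edgeR quasi-likelihood test, Benjamini-Hochberg adjusted p = 1.08e-09), and 58 of the 14610 genes tested fell further. In 4T1 *Hbegf* stood at 378, 358 and 364 CPM with DMSO and at 135, 131 and 134 CPM with ponatinib. It was 2.75-fold lower there, a log2 fold change of -1.46 ± 0.07 (adjusted p = 5.03e-10). Of the 9 genes of the family tested in MDA-MB-231, *HBEGF* fell furthest.

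*AREG* encodes amphiregulin, a ligand of EGFR prominent in the mammary gland. In 4T1 *Areg* was the most abundant ligand transcript, at 496, 538 and 541 CPM with DMSO and 183, 200 and 205 CPM with ponatinib. It was 2.68-fold lower, a log2 fold change of -1.42 ± 0.08 (edgeR quasi-likelihood test, Benjamini-Hochberg adjusted p = 1.95e-09), and the groups lay far apart. In MDA-MB-231 the gene was near the limit of detection. Its counts were 12, 8 and 8 with DMSO and 1, 3 and 0 with ponatinib, too few to pass the filter on low counts, so it was not tested in that line. Pooled, 28 counts stood against 4, a ratio of 7.51 per unit of depth (DMSO over ponatinib; 95% exact Clopper-Pearson interval 2.63 to 29.5, counting error only). The ponatinib libraries did not overlap the DMSO libraries, for which an exact two-sided permutation test over 3 libraries against 3 cannot give a p below 0.1. RefSeq lists a second name for this human gene, *AREGB*, that has denoted a near-identical copy, so the human counts are uncertain if reads were divided between entries.

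The promoter of *AREG* is shown because its best-known control element lies at a like distance in both species. The cAMP response element (CRE, letters TGACGTCA, a palindrome and so the same on both strands) starts 65 bases before the human start site and 54 bases before the mouse one. The human stretch is the 120 bases before the RefSeq start at chr4:74445016-74445135 on the plus strand of GRCh38.p14, and the mouse stretch is the 120 bases before the GENCODE canonical start at chr5:91287331-91287450 on the plus strand of GRCm39. Capitals mark the CRE.
human AREG: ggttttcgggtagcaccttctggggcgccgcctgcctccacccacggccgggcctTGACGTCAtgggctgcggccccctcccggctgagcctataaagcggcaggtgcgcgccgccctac
mouse Areg: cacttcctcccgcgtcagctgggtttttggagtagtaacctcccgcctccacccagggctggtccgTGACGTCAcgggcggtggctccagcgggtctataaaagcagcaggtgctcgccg
A CRE was found in 1.85% of 35116 human windows and 2.44% of 21770 mouse windows of the same kind, which run from 250 bases before to 50 bases after a start.

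*EREG* encodes epiregulin, a ligand of EGFR and ERBB4. In 4T1 *Ereg* was at 209, 246 and 241 CPM with DMSO and at 61.3, 73.1 and 64.3 CPM with ponatinib. It was 3.50-fold lower, a log2 fold change of -1.81 ± 0.09 (edgeR quasi-likelihood test, Benjamini-Hochberg adjusted p = 6.87e-10), with wide room between the groups. In MDA-MB-231 the gene was scarce, at 2.45, 2.01 and 1.45 CPM with DMSO and 1.45, 0.956 and 1.04 CPM with ponatinib. The log2 fold change of -0.77 ± 0.31 had a 95% interval of -1.45 to -0.09 and missed the threshold (adjusted p = 0.0531 with edgeR). With the replicate number as a block *EREG* passed it (log2 fold change -0.76, adjusted p = 0.0379).

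*TGFA* encodes transforming growth factor alpha, the ligand closest to EGF itself in its binding to EGFR. In MDA-MB-231 it went from 23.9, 25.2 and 23.7 CPM with DMSO to 5.87, 6.94 and 7.72 CPM with ponatinib. That is 3.55-fold lower, a log2 fold change of -1.82 ± 0.13 (edgeR quasi-likelihood test, Benjamini-Hochberg adjusted p = 4.54e-07), and no ponatinib library came near a DMSO library. In 4T1 *Tgfa* was at 62.5, 72.1 and 66.3 CPM with DMSO and at 38.5, 35.4 and 33.0 CPM with ponatinib. The 4T1 groups did not overlap either, and the log2 fold change of -0.91 ± 0.09 (adjusted p = 7.97e-07) was the smallest among the 5 ligand genes of that line.

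*BTC* encodes betacellulin, a ligand of EGFR and ERBB4, and it was the ligand gene whose direction was not the same in both lines. In 4T1 *Btc* was at 68.7, 64.9 and 76.1 CPM with DMSO and at 19.1, 19.7 and 17.8 CPM with ponatinib. It was 3.70-fold lower, a log2 fold change of -1.89 ± 0.09 (edgeR quasi-likelihood test, Benjamini-Hochberg adjusted p = 6.52e-10). In MDA-MB-231 the gene was barely expressed, with 5, 6 and 8 counts with DMSO and 28, 10 and 22 counts with ponatinib. All 3 ponatinib libraries lay above all 3 DMSO libraries but were widely spread, and the log2 fold change was 1.54 ± 0.46 (adjusted p = 0.0135). The gene passed the filter on low counts only through its ponatinib libraries, and without ponatinib replicate 1, the highest library, the log2 fold change was 1.17 (adjusted p = 0.0637).

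Added up, the 5 ligand genes gave 195 to 199 CPM in the MDA-MB-231 DMSO libraries and 37.0 to 39.5 CPM in the ponatinib libraries. In 4T1 the sum was 1215 to 1288 CPM with DMSO and 437 to 460 CPM with ponatinib. The 4T1 sum with ponatinib therefore still lay above the MDA-MB-231 sum with DMSO, a level set across separately counted gene tables. The makeup of the sum was unlike in the 2 lines. *HBEGF* made up 86.1 ± 0.431% (SD, n = 3) of ligand CPM in MDA-MB-231 with DMSO and 75.6 ± 0.814% with ponatinib, with *TGFA* at 12.4 ± 0.272% and 17.98 ± 2.05%. In 4T1 *Areg* held 41.6 ± 0.663% with DMSO and 43.5 ± 1.69% with ponatinib, and *Hbegf* held 29.1 ± 1.73% and 29.6 ± 1.20%. *Ereg* held 18.4 ± 1.06% of the 4T1 sum with DMSO and 14.7 ± 1.04% with ponatinib. In CPM, which does not allow for gene length, *HBEGF* thus made up most of the MDA-MB-231 sum with either treatment. No ligand gene made up most of the 4T1 sum in CPM. Per kilobase of exon the 4T1 makeup was unlike this. With DMSO *Areg* stood at 430 CPM per kilobase, against 71.7 for *Hbegf*, 52.1 for *Ereg*, 15.4 for *Btc* and 9.80 for *Tgfa*.

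**Figure D2:**
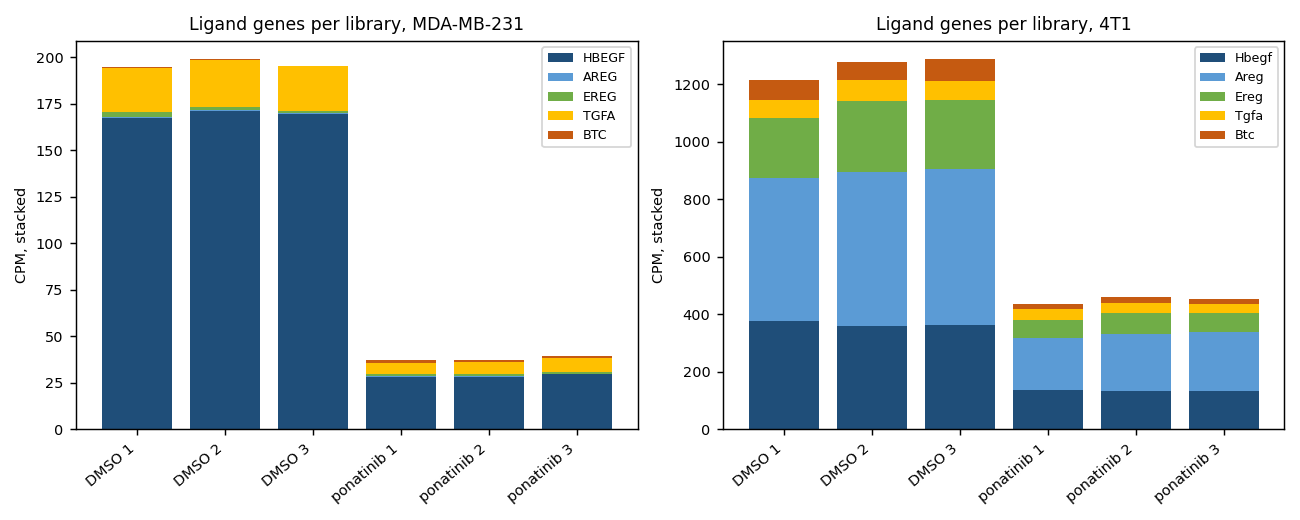
Stacked levels (CPM, linear axis from 0, a separate scale for each line) of the 5 ligand genes in each of the 12 libraries. The stacks of MDA-MB-231 are mostly *HBEGF* and those of 4T1 mostly *Areg*, *Hbegf* and *Ereg*, and in each line all 3 ponatinib stacks are lower than all 3 DMSO stacks.

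Some of the ligand genes are neighbours. *EREG*, *AREG* and *BTC* lie on human chromosome 4, together with *EPGN*, which encodes the ligand epigen, within 486.1 kb in GRCh38 (GENCODE v44), and their mouse counterparts lie on chromosome 5 within 375.6 kb in GRCm39 (GENCODE vM39). In 4T1 *Ereg*, *Areg* and *Btc* were all lower with ponatinib, while *Epgn* had 5 counts with DMSO and 10 with ponatinib and was not tested. In MDA-MB-231 all 4 genes of the stretch were scarce or silent, with *EPGN* at 0 counts with DMSO and 3 with ponatinib.

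*EGFR* encodes the receptor that binds all 5 ligands. In MDA-MB-231, a line with much *EGFR* transcript, its level was 218, 264 and 263 CPM with DMSO and 148, 169 and 183 CPM with ponatinib. All ponatinib libraries were below all DMSO libraries, and the log2 fold change was -0.57 ± 0.10 (edgeR quasi-likelihood test, Benjamini-Hochberg adjusted p = 0.000503). In 4T1 *Egfr* was at 34.6, 39.2 and 34.2 CPM with DMSO and at 34.4, 30.8 and 30.1 CPM with ponatinib. The 4T1 groups overlapped, and the log2 fold change of -0.18 had a 95% interval of -0.39 to 0.02 (adjusted p = 0.118).

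*ERBB2* encodes the receptor HER2, which has no ligand of its own and acts as the preferred partner of the others. In MDA-MB-231 it rose from 107, 92.3 and 95.4 CPM with DMSO to 177, 167 and 173 CPM with ponatinib. The groups lay well apart, with a log2 fold change of 0.81 ± 0.08 (edgeR quasi-likelihood test, Benjamini-Hochberg adjusted p = 5.70e-06). In 4T1 *Erbb2* was at 101, 92.9 and 81.6 CPM with DMSO and at 105, 91.7 and 89.3 CPM with ponatinib. These groups overlapped, and the log2 fold change of 0.06 had a 95% interval of -0.14 to 0.25 (adjusted p = 0.625).

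*ERBB3* encodes HER3, a receptor with a nearly inactive kinase that binds neuregulins and couples to PI3K. It was the receptor gene that rose in both lines. In MDA-MB-231 it went from 2.32, 2.59 and 2.26 CPM with DMSO to 7.76, 8.35 and 8.38 CPM with ponatinib. It was 3.41-fold higher, a log2 fold change of 1.77 ± 0.17 (edgeR quasi-likelihood test, Benjamini-Hochberg adjusted p = 4.33e-06), and the 2 sets of libraries were far apart. In 4T1 *Erbb3* stood at 12.02, 11.6 and 11.6 CPM with DMSO and at 24.4, 17.7 and 19.1 CPM with ponatinib. The log2 fold change was 0.80 ± 0.13 (adjusted p = 0.000114), and ponatinib replicate 1 was the highest library.

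*ERRFI1* encodes MIG6, an inhibitor that binds the EGFR kinase domain and is induced by receptor signaling. Its response was unlike in the 2 lines. In 4T1 *Errfi1* fell from 571, 594 and 609 CPM with DMSO to 131, 135 and 121 CPM with ponatinib. It was 4.58-fold lower, a log2 fold change of -2.20 ± 0.08 (edgeR quasi-likelihood test, Benjamini-Hochberg adjusted p = 2.62e-11), the furthest fall of the family in 4T1. In MDA-MB-231 *ERRFI1* was at 62.0, 77.3 and 79.4 CPM with DMSO and at 65.6, 74.5 and 79.8 CPM with ponatinib. The groups overlapped fully, and the log2 fold change of 0.01 ± 0.11 had a 95% interval of -0.23 to 0.25 (adjusted p = 0.954). That interval does not reach the fall seen in 4T1.

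The promoters of *ERRFI1* and *Errfi1* are shown because the gene was called lower in 4T1 and not in MDA-MB-231. The mouse stretch held a CRE that starts 46 bases before the start, and the human stretch held none. The human stretch is the 120 bases before the RefSeq start at chr1:8026310-8026429 on the minus strand of GRCh38.p14, and the mouse stretch is at chr4:150939402-150939521 on the plus strand of GRCm39. Capitals mark the CRE.
human ERRFI1: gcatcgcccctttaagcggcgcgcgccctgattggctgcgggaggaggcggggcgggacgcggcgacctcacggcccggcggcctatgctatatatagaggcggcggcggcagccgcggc
mouse Errfi1: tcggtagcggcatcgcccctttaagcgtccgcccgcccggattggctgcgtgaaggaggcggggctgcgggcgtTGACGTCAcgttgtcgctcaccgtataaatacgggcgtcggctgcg
A match is a description of the letters, and its use in these cells was not tested.

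Over the whole family, the CRE, the AP-1 site (TGACTCA) and the ETS site (CCGGAAGT) were searched on both strands in 14 human windows of 9 of the genes and 10 mouse windows. No window was searched for human *ERBB3*. A CRE was in 1 human and 2 mouse windows. An AP-1 site was in 2 human windows, those of a second listed *EGFR* start and of one listed *LRIG1* start, and in 2 mouse windows, those of *Tgfa* and *Erbb3*, against 4.95% of all human and 4.7% of all mouse windows. An ETS site was in the *ERBB2* window in 2 copies and in no mouse window, against 4.14% and 4.35% of all windows. No match overlapped a match of another motif. *HBEGF*, the gene that fell furthest of those tested in MDA-MB-231, had none of these letters in its window in either species.

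*LRIG1* encodes a transmembrane protein that lowers receptor levels. In MDA-MB-231 it was at 10.7, 11.98 and 11.2 CPM with DMSO and at 7.51, 7.20 and 7.67 CPM with ponatinib, a log2 fold change of -0.60 ± 0.13 (edgeR quasi-likelihood test, Benjamini-Hochberg adjusted p = 0.00194). In 4T1 *Lrig1* was at 282, 237 and 223 CPM with DMSO and at 142, 116 and 117 CPM with ponatinib, a log2 fold change of -0.99 ± 0.10 (adjusted p = 1.20e-06). It was lower in both lines with no overlap between groups. *LRIG1* overlaps *SLC25A26* on the other strand and *ERBB2* overlaps *MIEN1* and *PGAP3*, and since the library kit does not mark strand, reads in the shared bases cannot be told apart.

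**Figure D3:**
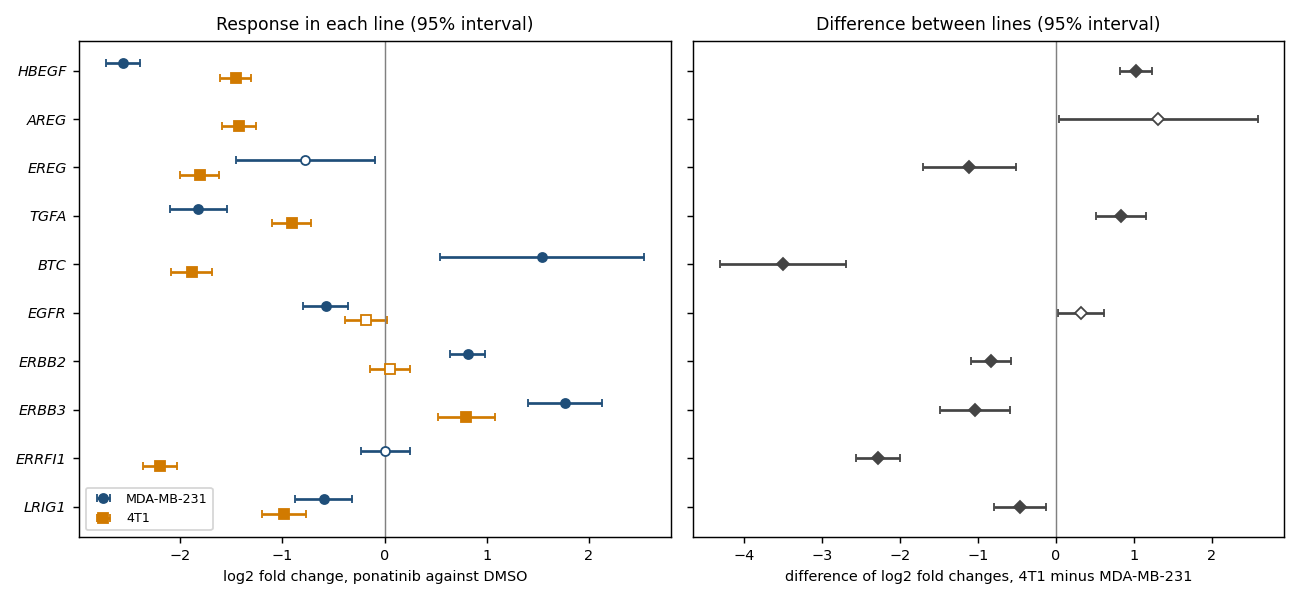
Left, log2 fold change with ponatinib in MDA-MB-231 (circles) and 4T1 (squares) with 95% intervals, filled where the edgeR adjusted p was under 0.05; *AREG* was not tested in MDA-MB-231. Right, the difference between the responses, 4T1 minus MDA-MB-231, from the interaction test, with filled symbols for the 8 of 10 genes called, *BTC* and *ERRFI1* lying furthest below 0.

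Whether the 2 lines responded unlike was tested with an interaction term of line by treatment across 12488 genes with the same symbol, of which 41.9% were called, 20.0% with a positive difference (4T1 minus MDA-MB-231) and 21.9% with a negative one. Of the 10 genes, 8 were called, 2 with a positive and 6 with a negative difference. *HBEGF* fell less in 4T1 than in MDA-MB-231, by a difference of log2 fold changes of 1.03 ± 0.10 (SE; edgeR quasi-likelihood test, Benjamini-Hochberg adjusted p = 9.00e-08), and so did *TGFA*, by 0.84 ± 0.15 (adjusted p = 0.000185). *EREG* fell further in 4T1, with a difference of -1.11 ± 0.28 (adjusted p = 0.00378). The greatest difference was that of *BTC*, at -3.50 ± 0.39 (adjusted p = 6.89e-07), followed by *ERRFI1* at -2.28 ± 0.13 (adjusted p = 2.13e-10). Part of the *BTC* value comes from MDA-MB-231, where the gene had 19 pooled counts with DMSO and 60 with ponatinib. In that line it passed the filter on low counts only through its ponatinib libraries, so the size of its difference is uncertain. The rise of *ERBB2* and of *ERBB3* was smaller in 4T1, with differences of -0.83 ± 0.13 and -1.04 ± 0.22 (adjusted p = 2.52e-05 and 0.000636). *LRIG1* fell further in 4T1, by -0.46 ± 0.16 (adjusted p = 0.0257), a call lost without any one of 7 libraries. *EGFR* (0.32 ± 0.14, adjusted p = 0.0705) and *AREG* (1.32 ± 0.61, adjusted p = 0.0902) were not called. With the replicate number as a block the *EGFR* difference passed the threshold (0.32, adjusted p = 0.0046). This fit scaled all 12 libraries together. For each gene of the family tested in both lines, its value lay below the plain difference of the log2 fold changes within the lines. *LRIG1*, for instance, had -0.60 in MDA-MB-231 and -0.99 in 4T1. The *LRIG1* and *EGFR* differences lie near the threshold, and how far their calls depend on this shift was not tested.

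Levels of different genes were compared as CPM per kilobase of exon. In MDA-MB-231 with DMSO *HBEGF* led at 56.6 ± 0.609 CPM per kilobase (SD, n = 3), ahead of *ERRFI1* at 17.4 ± 2.27 and *EGFR* at 15.6 ± 1.65, whose libraries overlapped. *ERBB2* came next at 9.50 ± 0.723, then *TGFA* at 4.94 ± 0.161 and *LRIG1* at 1.60 ± 0.0930 CPM per kilobase. *AREG*, *EREG*, *ERBB3* and *BTC* lay between 0.154 and 0.369 CPM per kilobase, and *AREG* and *EREG* overlapped. With ponatinib *ERRFI1* (17.5 ± 1.71) and *ERBB2* (16.7 ± 0.502) led and overlapped, and *HBEGF* (9.61 ± 0.244) overlapped *EGFR* (10.5 ± 1.11 CPM per kilobase). *HBEGF* thus no longer led this order.

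In 4T1 *Areg* led by far, at 430 ± 20.3 CPM per kilobase with DMSO and 161 ± 9.71 with ponatinib. With DMSO it ranked 71 among the 13161 genes tested that had a length. *Errfi1* (99.9 ± 3.25), *Hbegf* (71.7 ± 1.999), *Ereg* (52.1 ± 4.52) and *Lrig1* (39.0 ± 4.85 CPM per kilobase) followed, with no overlap between neighbours. *Erbb2* (16.9 ± 1.79) and *Btc* (15.4 ± 1.25) overlapped, and *Tgfa* (9.80 ± 0.706), *Egfr* (3.12 ± 0.242) and *Erbb3* (1.86 ± 0.0408 CPM per kilobase) came last. Among receptor genes with DMSO, *EGFR* led in MDA-MB-231 and *Erbb2* led in 4T1. With the longest transcript as the length, *Hbegf* stood before *Errfi1* in 4T1 and *EGFR* before *ERRFI1* in MDA-MB-231 with DMSO.

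**Figure D4:**
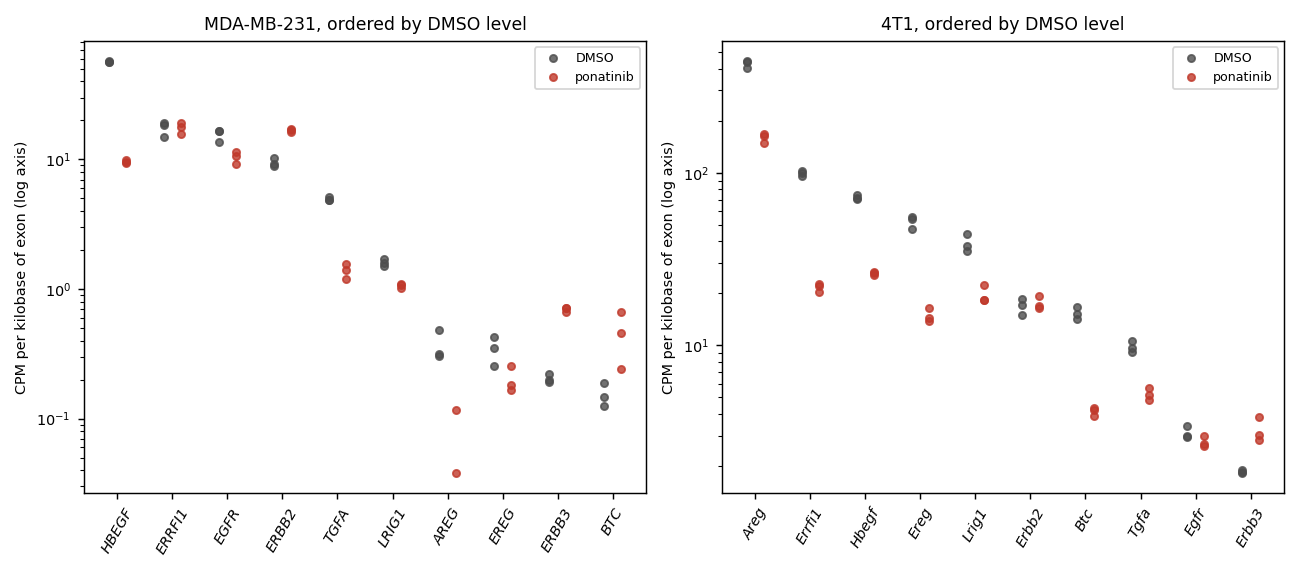
CPM per kilobase of exon (log axis) in each library with DMSO (grey) and ponatinib (red), genes ordered by their DMSO mean in each line; the one *AREG* library at 0 counts is not drawn. *HBEGF* leads in MDA-MB-231 with DMSO and *Areg* leads in 4T1 with either treatment.

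Calls among the rest of the pathway were about as frequent in each direction as among all genes. Of 45 further genes in 4 lists, 40 were tested in MDA-MB-231, of which 9 fell and 11 rose (median log2 fold change 0.08), beside 26.8% and 27.2% of all genes tested. Among those that rose, *EGF* and *VAV3* passed the filter on low counts only through the group where they are high. In 4T1, 40 were tested, of which 13 fell and 11 rose (median 0.05), beside 29.4% and 29.5% of all genes tested. These medians and counts lie near those of all genes. With the replicate number as a block 14 rather than 9 genes fell in MDA-MB-231, and with total counts as the scaling 17 rather than 11 were higher and 9 rather than 13 lower in 4T1.

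Among other ligands, *NRG1*, which encodes neuregulin-1, a ligand of ERBB3 and ERBB4, was lower in both lines (log2 fold change -1.38 ± 0.09 in MDA-MB-231, -0.24 ± 0.07 in 4T1, edgeR quasi-likelihood test, Benjamini-Hochberg adjusted p = 3.90e-07 and 0.0102). The 2 responses differed by 1.07 ± 0.11 (adjusted p = 4.63e-07). *EGF* itself was at 0.815 ± 0.307 CPM with DMSO and 3.15 ± 1.03 CPM with ponatinib in MDA-MB-231. Its log2 fold change there was 1.94 ± 0.36 (edgeR adjusted p = 0.000766). It passed the filter on low counts in that line only through its ponatinib libraries, so that call is no support for a change. In 4T1 *Egf* was higher, at 7.12 ± 0.841 CPM with DMSO and 10.6 ± 1.80 CPM with ponatinib (0.57 ± 0.15, adjusted p = 0.00543). *NRG2*, another neuregulin gene, was higher in MDA-MB-231 (log2 fold change 1.09 ± 0.22, adjusted p = 0.00151). Transcripts of *ERBB4*, the remaining receptor of the family, were at or near 0, with 3 counts over the DMSO and 3 over the ponatinib libraries of MDA-MB-231 and 0 in 4T1.

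Of 9 genes tested for shedding and transport of ligands, 1 fell and 2 rose in MDA-MB-231, where 26.8% and 27.2% of all genes did, and 3 fell and 3 rose in 4T1, where 29.4% and 29.5% did. *ADAM17*, the main protease for several of these ligands, was not called in either line. Its log2 fold change was 0.51 ± 0.27 in MDA-MB-231 (edgeR adjusted p = 0.139) and 0.19 ± 0.08 in 4T1 (adjusted p = 0.0645). *TIMP3*, an inhibitor of ADAM17, was higher in MDA-MB-231 (log2 fold change 0.95 ± 0.11, adjusted p = 1.70e-05) and lower in 4T1 (-1.70 ± 0.21, adjusted p = 7.39e-06), a difference of -2.72 ± 0.21 (adjusted p = 5.27e-09). The protease gene *ADAM19* was lower in MDA-MB-231 (-1.98 ± 0.10, adjusted p = 5.55e-08) and had 0 counts in 4T1. *Adam12* (1.96 ± 0.19, adjusted p = 5.45e-07) and *Rhbdl2* (1.03 ± 0.14, adjusted p = 2.72e-05) were higher in 4T1. *RHBDF1*, for an inactive rhomboid that carries ADAM17 to the surface, was higher in both lines (0.32 ± 0.09 in MDA-MB-231 and 0.26 ± 0.08 in 4T1, adjusted p = 0.0103 and 0.0141), though its 4T1 libraries overlapped. Its relative *Rhbdf2* was lower in 4T1 (-0.48 ± 0.08, adjusted p = 0.000178).

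All 12 receptor adaptor genes were tested. In MDA-MB-231, 2 fell and 2 rose, beside 54.0% of all genes called in either direction, and 4T1 showed 4 falls and 4 rises, beside 59.0%. *GRB2*, the adaptor that links receptors to RAS, was lower in both lines (log2 fold change -0.63 ± 0.11 in MDA-MB-231 and -0.18 ± 0.08 in 4T1, edgeR adjusted p = 0.000511 and 0.0497), as was *PTPN11*, which encodes the phosphatase SHP2 (-0.61 ± 0.13 and -0.35 ± 0.08, adjusted p = 0.00190 and 0.00252). *SOS2*, a RAS exchange factor gene, was higher in MDA-MB-231 (0.52 ± 0.13, adjusted p = 0.00553) and lower in 4T1 (-0.56 ± 0.09, adjusted p = 0.000139), a difference of -1.15 ± 0.17 (adjusted p = 1.53e-05). *VAV3* had 2 counts with DMSO and 55 with ponatinib in MDA-MB-231, a ratio of 25.6 per unit of depth (95% exact Clopper-Pearson interval 6.76 to 217, counting error only). It passed the filter on low counts only through its ponatinib libraries, so its call there (adjusted p = 0.000251) is no support for a change. In 4T1 *Vav3* was lower (-0.44 ± 0.11, adjusted p = 0.00279) and *Vav2* was higher (0.75 ± 0.09, adjusted p = 5.51e-06), as was the adaptor gene *Nck2* (0.34 ± 0.09, adjusted p = 0.00441).

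Among genes for down-regulation of the receptors, 5 of 15 tested fell and 5 rose in MDA-MB-231, and 5 of 16 fell and 3 rose in 4T1, beside 54.0% and 59.0% of all genes called in either direction. *CBL*, the main ligase of EGFR, was lower in both lines (log2 fold change -0.51 ± 0.12 in MDA-MB-231 and -0.43 ± 0.10 in 4T1, edgeR adjusted p = 0.00335 and 0.00189). Its relative *CBLB* rose in MDA-MB-231 from 4.00 ± 0.258 to 22.6 ± 0.738 CPM (2.49 ± 0.12, adjusted p = 3.84e-08) and was not called in 4T1 (-0.04 ± 0.12, adjusted p = 0.780), a difference of -2.61 ± 0.18 (adjusted p = 1.20e-09). *Cblc*, the third of these ligases, was higher in 4T1 (1.58 ± 0.24, adjusted p = 6.34e-05) and at 0 counts in MDA-MB-231. *UBASH3B*, which opposes CBL-driven degradation, was lower in MDA-MB-231 (-1.64 ± 0.10, adjusted p = 1.39e-07). *SOCS4*, for a suppressor of cytokine signaling that binds EGFR, was lower in both lines (-0.52 ± 0.12 and -0.63 ± 0.13, adjusted p = 0.00343 and 0.000820). *Socs5* was lower in 4T1 (-0.61 ± 0.09, adjusted p = 3.07e-05). The receptor phosphatase gene *PTPRJ* was higher in MDA-MB-231 (0.65 ± 0.21, adjusted p = 0.0193), though its libraries overlapped, and the phosphatase gene *Ptpn1* was higher in 4T1 (0.31 ± 0.07, adjusted p = 0.00129).

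**Figure D5:**
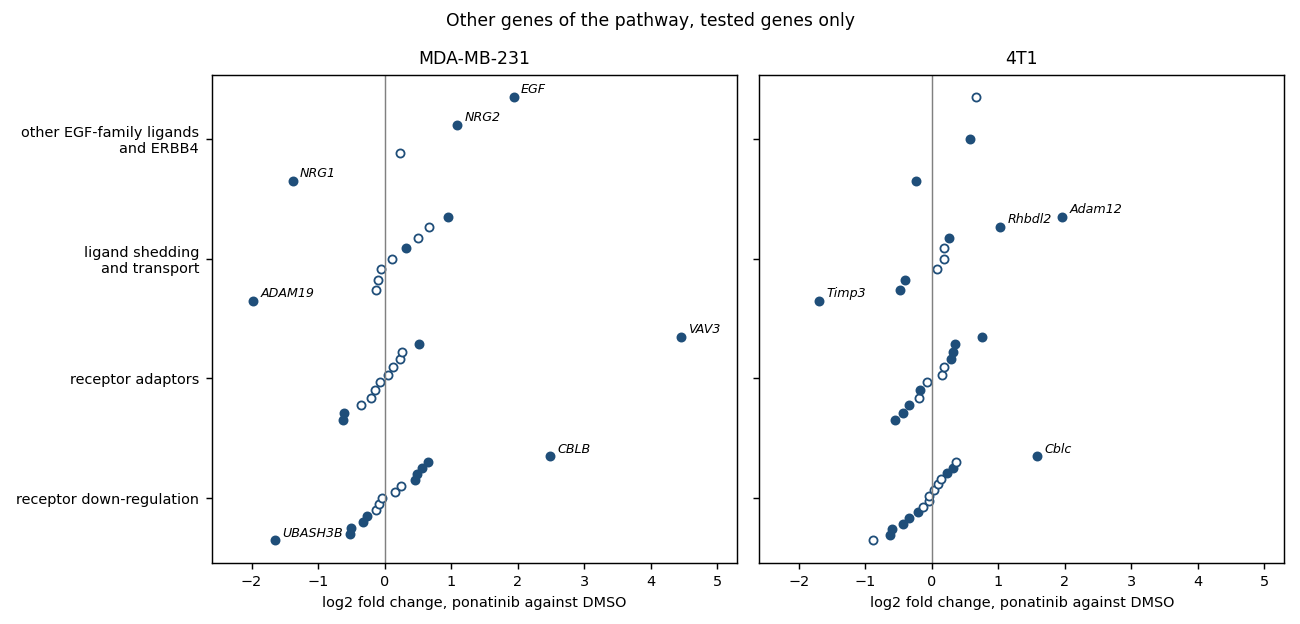
Log2 fold change with ponatinib of the tested genes of 4 further lists, filled where the edgeR adjusted p was under 0.05, with the called genes beyond 1 in size named. Points lie on both sides of 0 in every list, with *VAV3* and *CBLB* highest in MDA-MB-231 and *Adam12* highest in 4T1.

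The genes whose pair of log2 fold changes lay nearest that of *HBEGF* (-2.56 in MDA-MB-231, -1.46 in 4T1), among 9838 genes with one identifier in each species, were *SMTN* (-2.47 and -1.29, a distance of 0.187), *DUSP5* (-2.72 and -1.34, a distance of 0.196) and *FOSL1* (-2.72 and -1.62, a distance of 0.232). The distance is Euclidean on the log2 scale over the 2 lines. *DUSP5* encodes a phosphatase of ERK, and *FOSL1* encodes a subunit of the AP-1 transcription factor.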

How the data were processed

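RNA of MDA-MB-231 and 4T1 cells was sequenced in 12 libraries, 3 for each line with ponatinib or DMSO. The authors trimmed reads, aligned them with HISAT2 to hg38 or GRCm39 and counted them per gene with HTSeq, and the deposited values are whole-number counts; versions, annotation and strand setting are not given in the sources used here. Samples were grouped by their titles. Names, lengths and positions came from GENCODE v44 and vM39, which matched 81.9% and 91.1% of identifiers (99.3% and 99.8% of counts). The members and lists were chosen with earlier results of these data known.

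For each line, edgeR 4.0.16 (R 4.3.3) filtered genes (filterByExpr, minimum count 10), scaled by TMM and ran the quasi-likelihood test with Benjamini-Hochberg adjustment over all genes, called under 0.05. Differences between lines were the interaction term over all 12 libraries, scaled together by TMM over the genes with the same symbol. SE is the log2 fold change over the root of F. CPM used TMM-scaled totals; per-kilobase values divided them by the union of exons. Precision is limited by 15012884 to 18951493 counts per library, and intervals on counts cover counting error only. All 10 genes were named in both lines; of each list, called genes past a log2 fold change of 1 and otherwise up to 2 each way, with the other line's value of a named gene, and *CBL*, *ADAM17*, *ERBB4* and *EPGN*, added after their values were seen.

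Same-numbered libraries deviated together (correlation 0.135 to 0.435 in all 6 pairs, above the 0.1 set for pairing), so the replicate number was also fitted as a block; what a number marks is not stated. Other alternatives were DESeq2 1.42.0, other scalings and filters, and leaving out each library. The fits were tested on simulated data.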

Additional observations from a re-analysis of the deposited data

Results flagged for a closer look

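Of the 10 genes, 8 were singled out because their response to ponatinib differed between the lines by the interaction test (edgeR quasi-likelihood test, Benjamini-Hochberg adjusted p under 0.05), against 41.9% of all genes tested. The differences of log2 fold changes, 4T1 minus MDA-MB-231, were 1.03 for *HBEGF*, -1.11 for *EREG*, 0.84 for *TGFA*, -3.50 for *BTC*, -0.83 for *ERBB2*, -1.04 for *ERBB3*, -2.28 for *ERRFI1* and -0.46 for *LRIG1*. *BTC* was lower in 4T1 and had 19 pooled counts with DMSO and 60 with ponatinib in MDA-MB-231, where it passed the filter on low counts only through its ponatinib libraries and was not called without ponatinib replicate 1 (log2 fold change 1.17, edgeR adjusted p = 0.0637). Species, gene table and line cannot be told apart in this comparison.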

How the results depend on the processing

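The counts of called genes of the family held within 1.5 times under every alternative run: 4 to 6 lower and 2 to 3 higher in MDA-MB-231, 7 lower and 1 higher in 4T1, and 7 to 9 differences between the lines. The 45 further pathway genes moved more. In MDA-MB-231, 14 of them were lower with the replicate number as a block against 9 without it, and in 4T1, 17 were higher with total counts as the scaling against 11 with TMM, a scaling that put the median of all genes at 0.11 and 0.12 (log2) in MDA-MB-231 and 4T1. *ERRFI1* in MDA-MB-231, not called, changed sign with no filter (-0.021), with DESeq2 (-0.012) and in the range without single libraries (-0.11 to 0.080), as did *Erbb2* in 4T1 (-0.025 to 0.12). *AREG* in MDA-MB-231, below the filter, gave a log2 fold change of -2.81 with no filter (edgeR adjusted p = 0.00421) and -2.90 with DESeq2 (adjusted p = 0.0254).

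*EREG* in MDA-MB-231 was called lower with the block, with no filter (adjusted p = 0.0493) and without DMSO replicate 3 (-0.96, adjusted p = 0.0330) or ponatinib replicate 1 (-0.97, adjusted p = 0.0345), over a range of adjusted p from 0.0330 to 0.177. The *EGFR* difference between lines ran from 0.25 to 0.45 and was called in 9 of 18 alternatives, and the *AREG* difference was called without MDA-MB-231 ponatinib replicate 2 (2.59, adjusted p = 0.0210). The *LRIG1* difference lost its call with total counts (-0.36) and without MDA-MB-231 DMSO replicate 1 (-0.42) or 3 (-0.46), MDA-MB-231 ponatinib replicate 3 (-0.44), 4T1 DMSO replicate 1 (-0.30) or 2 (-0.43) and 4T1 ponatinib replicate 2 (-0.35) or 3 (-0.36). The block changed no call of a gene of the family other than *EREG* and the *EGFR* difference. With the longest transcript as the length, 14 of 20 levels per kilobase moved by more than the spread between libraries. In each case the cause was not tested. Depth limits *AREG*, *EREG* and *BTC* in MDA-MB-231, which had at most 37 counts in a library.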
